A study of Aptenodytes patagonicus with 3 samples.

Results

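Pyruvate dehydrogenase, the citric acid (TCA) cycle and the branched-chain enzymes were followed in pectoralis muscle, the main swimming muscle, of 3 artificially acclimated (AA) king penguin juveniles. The list held 46 genes, chosen by symbol, of which 37 had at least 1 probe set that named them alone, out of 12913 genes with such a probe set. The other 9, PDHA1, PDK2, MPC1, CS, IDH3G, ME2, GLUD1, BCKDK and BDH1, were not analysed here. The 37 genes had 68 probe sets of the 36813 on the array, and the brightest by its mean over the 3 birds stood for its gene.

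Each bird was 1 sample on 1 Affymetrix Chicken Genome array. Bird 2 was a male, and birds 1 and 3 were females. All 3 had been caught before ever entering cold water, had moulted in captivity and were then put into water at 8 °C in a tank 10 times, for 5 hours every 2 days. They were fed mackerel daily, and the muscle was taken under anaesthesia. The birds shared 1 treatment, and the arrays of never-immersed and sea-acclimatized birds were not analysed here, so the values below describe differences between treated birds and not the effect of immersion. Sex was the one label that differed, and with 1 male a difference of sex cannot be told apart from a difference of 1 bird.

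Pyruvate dehydrogenase is the mitochondrial complex that turns pyruvate from glycolysis into acetyl-CoA and so commits carbohydrate carbon to oxidation. Kinases (PDK) switch it off by phosphorylation and phosphatases (PDP) switch it on again, and in mammals PDK4 is known to rise in fasting and when muscle burns fat. The TCA cycle oxidises the acetyl group whatever fuel it came from. The branched-chain enzymes form a sister complex that breaks down leucine, isoleucine and valine, and part of that carbon re-enters the cycle through propionyl-CoA carboxylase.

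Values are log2 signals, so 1 unit is a doubling of signal. Penguin RNA was bound by chicken probes, and signal therefore also depends on how well each probe matches. For this reason genes were compared between birds within a probe set, and levels of different genes were set beside each other only to place a probe set in the dim or bright part of the array. The 3 arrays had the same spread of values after the authors' normalization, with medians of 8.63 in the male and 8.62 in both females. Of the fast-fibre markers measured, 8 of 9 lay above the upper quartile of all probe sets (9.62), ACTA1 and the myosin light chain MYL1 among them.

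As a set, these metabolic genes varied between birds about as much as genes in general. The median SD over the 3 birds was 0.203 for the 37 genes and 0.201 for all 12913 genes, and the median range was 0.39 and 0.38 log2 units. The male lay below both females for 12 of the 37 genes, against 32.5% of all genes, above both for 13, against 41.5% of all genes, and between them for 12. The median difference of the male from the females was 0.0016 log2 units for the 37 genes and 0.04 for all genes. At an adjusted p under 0.05 from limma, 0 of 36813 probe sets were called for the male against the females (0%), so 0 of the 68 were, and the smallest adjusted p of a metabolic probe set was 0.214. At an unadjusted p under 0.05, 3 of the 37 genes passed, PDP1, PCCB and PDK4, where 12.5% of all genes did. The limma standard errors of the 37 differences ran from 0.229 to 0.376 log2 units, and differences of about this size could not be told from 0. These errors rest mostly on a spread that limma pools over all probe sets, with 7.35 prior degrees of freedom beside 1 residual. The spread of the single male was not observed.

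**Figure D1:**
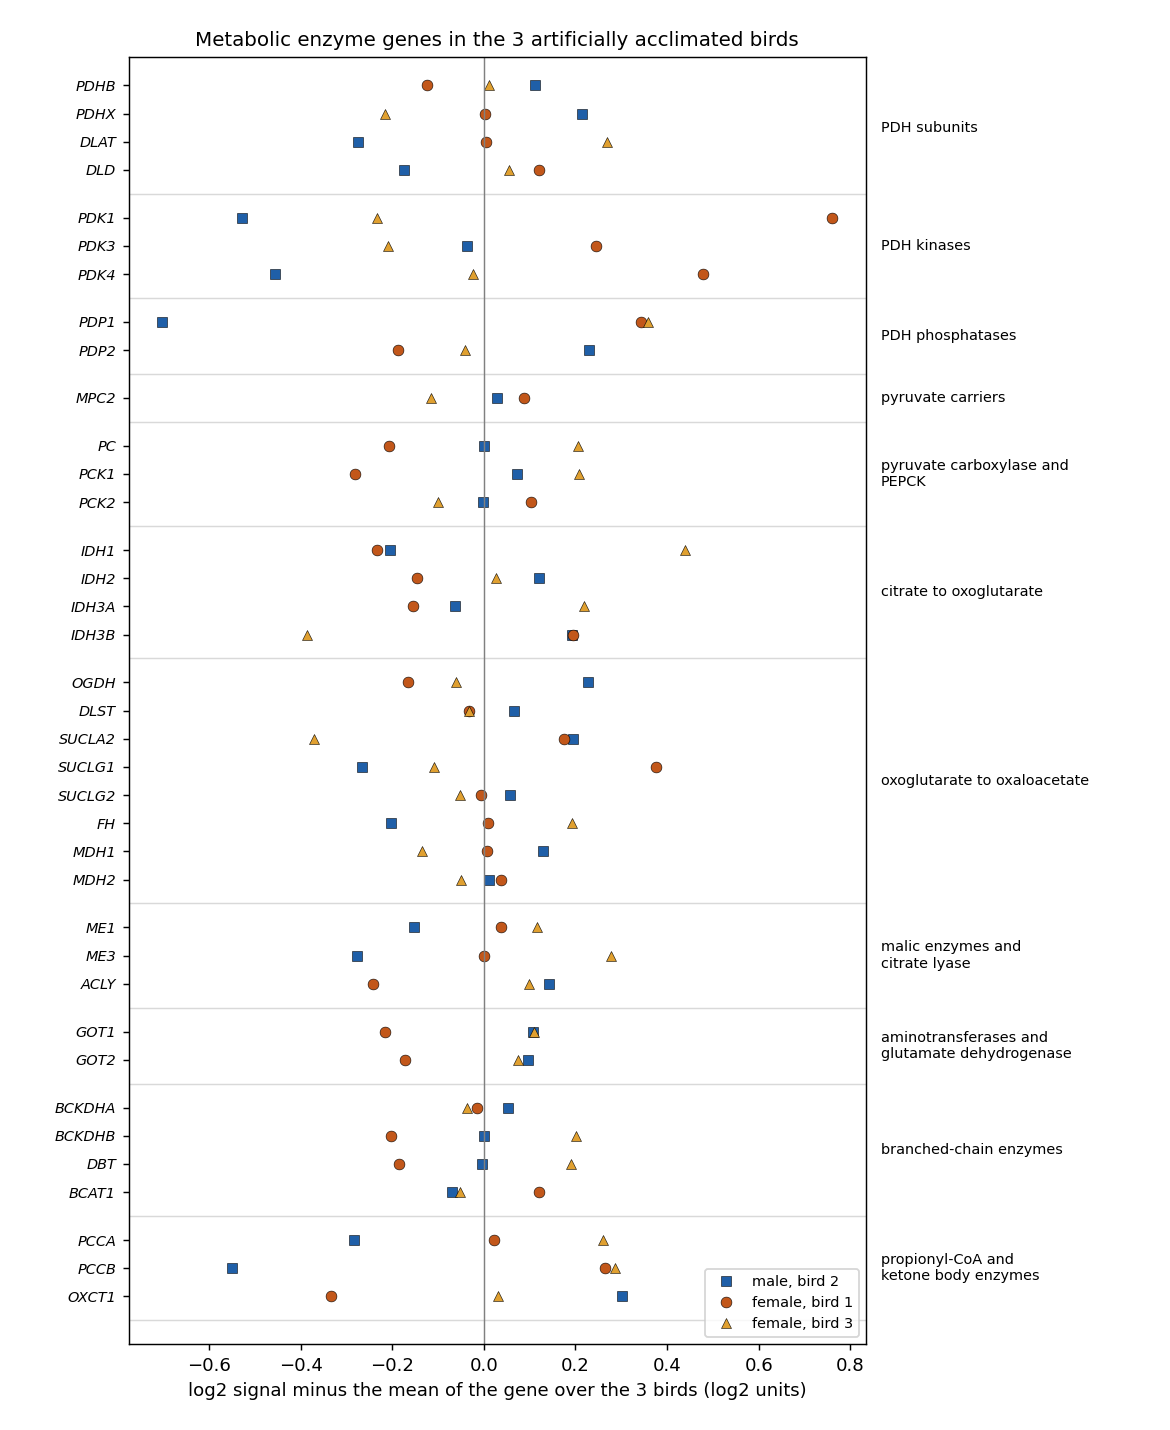
Deviation of each bird from the mean of the gene over the 3 birds (log2 units, horizontal axis) for the 37 measured genes, grouped by role. Each point is 1 bird on the brightest probe set, and the widest gaps are those of PDK1, PDP1, PDK4 and PCCB, with ranges of 1.29, 1.06, 0.94 and 0.84.

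Only a few genes stood wide of the rest. A range above 1 log2 unit was seen for 2 of the 37 genes, PDK1 and PDP1, about the share of all genes, 6.01%. The range of PDK1, 1.29, was wider than that of 97.2% of all genes, that of PDP1, 1.06, wider than 95.1%, that of PDK4, 0.94, wider than 92.6% and that of PCCB, 0.84, wider than 89.9%. Of these 4 genes, 3 regulate pyruvate dehydrogenase and the remaining one encodes a subunit of propionyl-CoA carboxylase. A wide range was not shared by all regulators. That of PDK3, 0.46, was wider than 60.8% of all genes and that of PDP2, 0.42, wider than 55.2%. The second probe set of PDK1, a dim one, had a range of only 0.092, and that of PDP1 a range of 0.91. PDK4 and PCCB had 1 probe set each. At the other end, BCKDHA and MDH2 had ranges of 0.088, DLST 0.099 and SUCLG2 0.11. On their second probe sets, MDH2 had a range of 0.41, DLST of 0.37 and SUCLG2 of 0.11. BCKDHA had no second probe set.

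**Figure D2:**
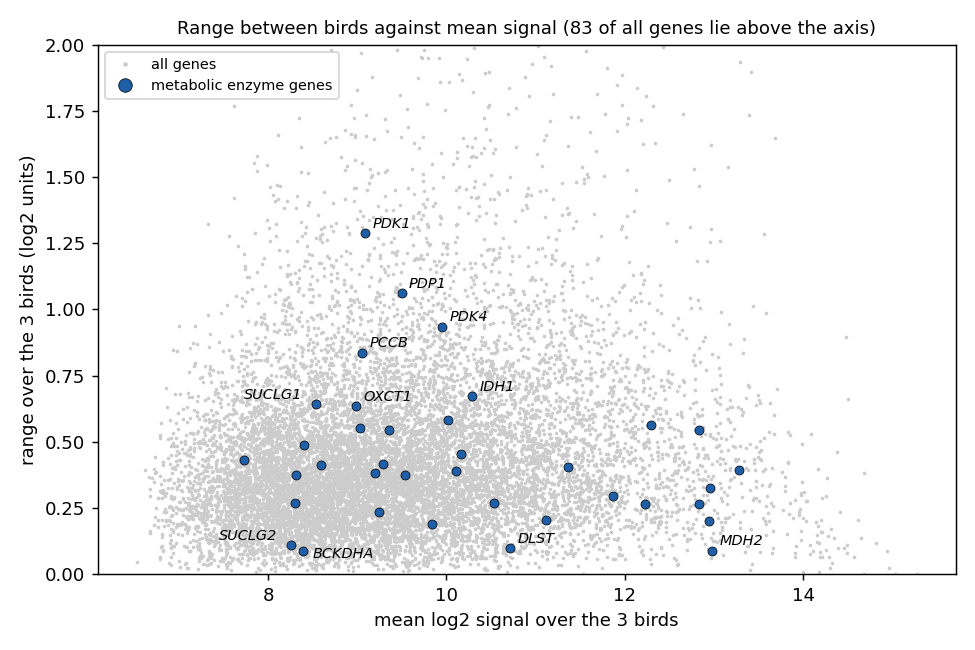
Range over the 3 birds (log2 units, vertical axis) against mean log2 signal (horizontal axis), 1 point per gene, with the 37 metabolic genes in blue over all 12913 genes in grey. The vertical axis ends at 2, and 83 of all genes lie above it. PDK1 and PDP1 are the 2 blue points above 1.

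The measured subunits of the pyruvate dehydrogenase complex differed by 0.24 to 0.54 log2 units between birds on their brightest probe sets. DLAT, the acetyltransferase of the core, read 12.56 in the male, against 12.84 and 13.10 in females 1 and 3. DLD, the dihydrolipoamide dehydrogenase that this complex shares with the oxoglutarate and branched-chain complexes, read 11.70 in the male, against 11.99 and 11.93 in females 1 and 3. For both, the male was the lowest bird. A second DLD probe set read 10.67 in the male, against 10.53 and 10.31 in the females, and had the male as the highest bird. With the probe sets of a gene averaged, the difference of the male from the females was -0.13 for DLAT and -0.01 for DLD. PDHB, the beta subunit of the decarboxylase, read 9.36 in the male, against 9.12 and 9.26 in the females. PDHX, which tethers DLD to the core, read 7.94 in the male, against 7.73 and 7.51 in the females, on a probe set below the lower quartile of the array (7.88). For these 2 the male was the highest bird. On the brightest probe sets the differences of the male from the females were -0.41 for DLAT, -0.26 for DLD, 0.17 for PDHB and 0.32 for PDHX, and their 95% intervals from limma all held 0. On the second probe sets the differences were 0.14 for DLAT, 0.25 for DLD and 0.11 for PDHB. MPC2, a subunit of the carrier that brings pyruvate into the mitochondrion, read 12.97 in the male, against 13.03 and 12.82 in the females, a range of 0.20.

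The 3 measured kinases were all highest in bird 1, as were 27.5% of all genes. PDK1, known in mammals as a target of the hypoxia factor HIF1A, read 8.56 in the male, against 9.85 in female 1 and 8.86 in female 3. Bird 1 thus stood apart, and the male and bird 3 differed by much less than either did from it. PDK4 read 9.49 in the male, against 10.43 and 9.93 in females 1 and 3, with bird 3 midway. PDK3 read 10.13 in the male, against 10.41 and 9.96 in females 1 and 3, a range of 0.46, and here bird 3 and not the male was lowest. Bird 1 lay above the mean of the other birds by 1.14 log2 units for PDK1, 0.72 for PDK4 and 0.37 for PDK3. The difference of the male from the females was -0.79 for PDK1 (95% interval -1.65 to 0.07, adjusted p = 0.551) and -0.68 for PDK4 (-1.31 to -0.06, adjusted p = 0.463). Without bird 1 these differences were -0.29 and -0.43, so bird 1 carried much of them, and without bird 3 that of PDK1 was -1.29. PDK3 and PDK4 each had 1 probe set. That of PDK3 and the brightest of PDK1 can bind several transcripts, while that of PDK4 was designed for a single transcript. A second probe set of PDK1, in the dimmest 25% of the array with a mean of 6.84, read 6.81 in the male, against 6.83 and 6.90 in the females, and did not show the high value of bird 1.

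On their brightest probe sets, the phosphatase PDP1 was lowest and PDP2 highest in the male, and at least 1 other probe set of each gene placed the male differently. PDP1, the calcium-sensitive form that is the main phosphatase of mammalian muscle, read 8.79 in the male, against 9.84 and 9.86 in the females. The females read almost alike and the male stood below both, with a difference of -1.05 (95% interval -1.58 to -0.53, adjusted p = 0.214). This was the largest difference among the 37 genes, and it did not pass the threshold after adjustment. The second probe set of PDP1, also designed for a single transcript, read 8.82 in the male, against 8.10 in female 1 and 9.01 in female 3, so there bird 1 was lowest and the male was between. With both probe sets averaged, the difference of the male was -0.40. PDP2, the other phosphatase, read 9.51 in the male, against 9.10 and 9.24 in females 1 and 3. Its second probe set read 8.68 in the male, against 8.37 and 8.13 in the females, which again put the male on top, while the third and dimmest read 7.59, against 7.95 and 7.78, which put the male at the bottom.

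**Figure D3:**
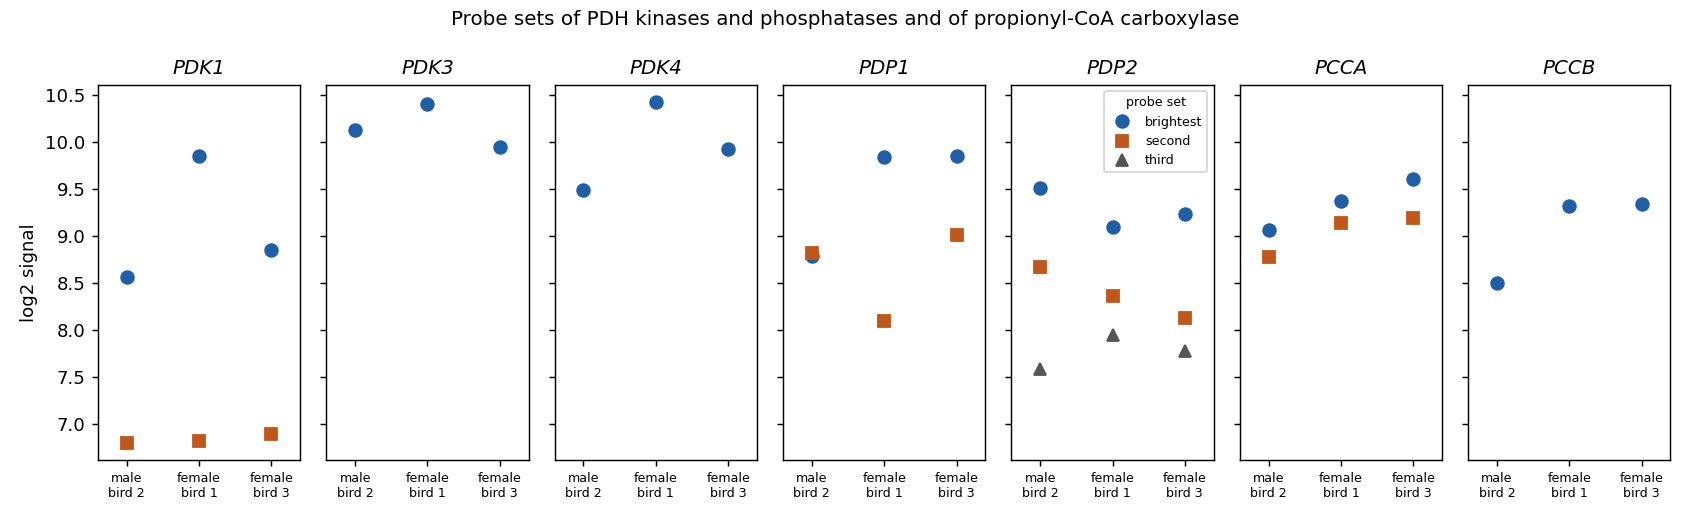
Log2 signal (vertical axis) of every probe set of the kinases PDK1, PDK3 and PDK4, the phosphatases PDP1 and PDP2 and the propionyl-CoA carboxylase genes PCCA and PCCB in the male and the 2 females (horizontal axis). Each point is 1 bird. The brightest probe sets of the 3 kinases peak in bird 1, the 2 probe sets of PDP1 differ in which bird is lowest, and the male is lowest on all 3 probe sets of PCCA and PCCB.

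Both subunits of propionyl-CoA carboxylase, the mitochondrial enzyme that takes propionyl-CoA from isoleucine, valine and odd-chain fats toward succinyl-CoA, were lowest in the male. PCCB, the beta subunit, read 8.50 in the male, against 9.32 and 9.34 in the females, a difference of -0.83 (95% interval -1.35 to -0.30, adjusted p = 0.285). PCCA, the biotin-bearing alpha subunit, read 9.07 in the male, against 9.37 and 9.61 in females 1 and 3, a difference of -0.42. The second probe set of PCCA, which reads the RNA of the same gene and is no replicate, read 8.78 in the male, against 9.15 and 9.19 in the females. The male was the lowest bird on all 3 probe sets of the enzyme, 2 of which read the RNA of PCCA. For comparison, the male lay below both females for 32.5% of all genes. The next enzymes of the route did not follow. MUT, the methylmalonyl-CoA mutase, read 10.25 in the male, against 10.04 and 10.10 in the females. MCEE, the epimerase before it, read 8.00, against 7.54 and 7.15, on a probe set below the lower quartile of the array (7.88). The male was highest for both. MUT was chosen for mention after its values were seen.

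OXCT1, which lets muscle use ketone bodies by charging acetoacetate with CoA, went the other way. It read 9.29 in the male, against 8.65 and 9.02 in females 1 and 3, a difference of 0.45 (95% interval -0.13 to 1.03, adjusted p = 0.627). Its other probe sets read 7.87 in the male, against 7.76 and 7.98 in the females, and 7.61, against 7.27 and 7.44. Bird 1 was the lowest on all 3. In RefSeq's king penguin annotation (assembly bAptPat1.pri.cur), OXCT1 lies on chromosome Z, of which male birds carry a pair. It was the only 1 of the 37 genes placed there, among 35 whose symbol that annotation held. For IDH3B, counted among the 35, the chromosome was given as unknown, and PC and PCK2 were not held. Whether its place on Z bears on these values was not tested. Without bird 1 the difference was 0.27, and averaged over the 3 probe sets it was 0.24.

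The enzymes of the TCA cycle, with the cytosolic IDH1 and MDH1 counted among them, had a median SD of 0.196 over the birds, close to the 0.201 of all genes. On the brightest probe sets of these 12 genes, the male was highest for 6, against 41.5% of all genes, and lowest for 2, against 32.5%. It lay between the females for 4, against 26.0%. The median difference from the females was 0.09, beside 0.04 over all genes. Of the 6 genes with the male highest, OGDH, DLST, SUCLA2, SUCLG2, MDH1 and IDH2, the second probe set had the male highest for 0, between the females for 2 and lowest for 4. The share over all genes picked in this way was not computed, so the count is not read as particular to the cycle. Across the array, the 2 brightest probe sets of a gene had the same highest bird for only 37.7% of genes. MDH2, the mitochondrial malate dehydrogenase, read 12.99 in the male, against 13.02 and 12.93 in the females. Its cytosolic partner MDH1 read 12.35, against 12.23 and 12.09. IDH2, the NADP-linked mitochondrial isocitrate dehydrogenase, read 12.95 in the male, against 12.68 and 12.85 in the females, a range of 0.26. IDH1, the cytosolic form, read 10.08 in the male, against 10.06 and 10.73 in females 1 and 3, so bird 3 alone was high. IDH3B, a subunit of the NAD-linked enzyme that works in the cycle, read 10.21 in the male, against 10.22 and 9.63, so here bird 3 alone was low. A second IDH3B probe set read 8.91 in the male, against 8.71 and 8.70, where the females were alike. IDH3A, the gene of the catalytic subunit, read 8.25 in the male, against 8.16 and 8.53, with bird 3 highest, and 8.21, against 8.12 and 7.95, on its second probe set, with bird 3 lowest.

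Succinyl-CoA synthetase, the step that makes ATP or GTP directly, joins the alpha subunit SUCLG1 to one of 2 beta subunits. SUCLA2, the ATP-forming beta subunit, read 12.48 in the male, against 12.46 in female 1 and 11.92 in female 3. Bird 3 alone was low. A second SUCLA2 probe set read 10.96 in the male, against 11.24 and 10.55 in females 1 and 3, and also had bird 3 lowest. SUCLG2, the GTP-forming beta subunit, read 8.32 in the male, against 8.25 and 8.21 in the females. SUCLG1 read 8.27 in the male, against 8.91 and 8.43 in females 1 and 3, a range of 0.64. Its second probe set, nearly as bright, read 8.47 in the male, against 8.40 and 8.66, where bird 1 was the lowest and not the highest bird. The third SUCLG1 probe set, below the lower quartile of the array, read 8.01 in the male, against 7.48 and 7.72, with the male highest. OGDH and DLST, the decarboxylase and the succinyltransferase of the oxoglutarate complex, were highest in the male on their brightest probe sets, with ranges of 0.39 and 0.099. The second OGDH probe set read 9.23 in the male, against 9.22 and 9.35 in the females, with the male between them. The second DLST probe set read 9.42 in the male, against 9.79 and 9.71, with the male lowest. FH, the fumarase, was lowest in the male with a range of 0.39.

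Among genes that feed or drain the cycle, ranges ran from 0.20 for PCK2 to 0.55 for ME3. PC, pyruvate carboxylase, read 8.59 in the male, against 8.39 and 8.80 in females 1 and 3. PCK1, the cytosolic phosphoenolpyruvate carboxykinase, read 8.47, against 8.12 and 8.61. PCK2, the mitochondrial form, read 11.12, against 11.22 and 11.02. In all 3 the male lay between the females on these probe sets. A second PCK2 probe set read 9.07 in the male, against 8.92 and 8.93, with the male highest. The malic enzyme genes were lowest in the male, ME3 with 8.75, against 9.03 and 9.30, and ME1 with 8.15, against 8.34 and 8.42. ACLY, which splits exported citrate for lipid synthesis, read 9.35 in the male, against 8.96 and 9.30. Its second probe set, below the lower quartile of the array, read 7.51 in the male, against 7.81 and 7.82, with the male lowest. The aspartate aminotransferases of the malate-aspartate shuttle were lowest in bird 1. GOT1, the cytosolic form, read 13.07 in the male, against 12.74 and 13.07 in females 1 and 3, and GOT2, the mitochondrial form, read 10.63, against 10.36 and 10.61. A second GOT2 probe set had the same lowest bird, with 9.51 in the male, against 8.58 and 9.37.

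In the branched-chain group the largest range was 0.40 log2 units. BCKDHA and BCKDHB, the subunits of the branched-chain decarboxylase, differed in their range. BCKDHA read 8.44 in the male, against 8.38 and 8.36 in the females, the smallest range of the 37 genes. BCKDHB read 11.36 in the male, against 11.16 and 11.56 in females 1 and 3. DBT, the transacylase core of the complex, read 9.53 in the male, against 9.35 and 9.72, the order of birds of BCKDHB, while its second probe set read 9.13, against 8.72 and 9.09, with the male highest. BCAT1, the cytosolic aminotransferase that starts the breakdown, had a range of 0.19. The kinase of the complex, BCKDK, was not analysed here, and its phosphatase PPM1K read 11.57 in the male, against 11.30 and 11.63 in the females.

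Most genes with several probe sets gave more than 1 picture. Of the 37 genes, 23 had a second probe set. The 2 brightest probe sets put the male on the same side of the females for 10 of the 23, against 53.9% of 7076 genes with at least 2 probe sets, and had the same highest bird for 4, against 37.7%. The full order of the birds was the same for 2, against 20.6%. All probe sets of the gene put the male below the female mean for PCCA and PDK1, and above it for GOT2, IDH3B, MPC2, OXCT1, PDHB and SUCLA2. The other 15 of the 23 were mixed, 65.2% of them, as were 62.5% of all such genes. For DLAT the second probe set read 8.02 in the male, against 8.03 and 7.71 in females 1 and 3, where bird 3 was lowest and not highest. For MDH1 it read 9.91 in the male, against 10.40 and 10.43, a difference of -0.51 beside 0.19 on the brightest. The order of the birds on 1 probe set was thus often not that on another of the same gene.

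**Figure D4:**
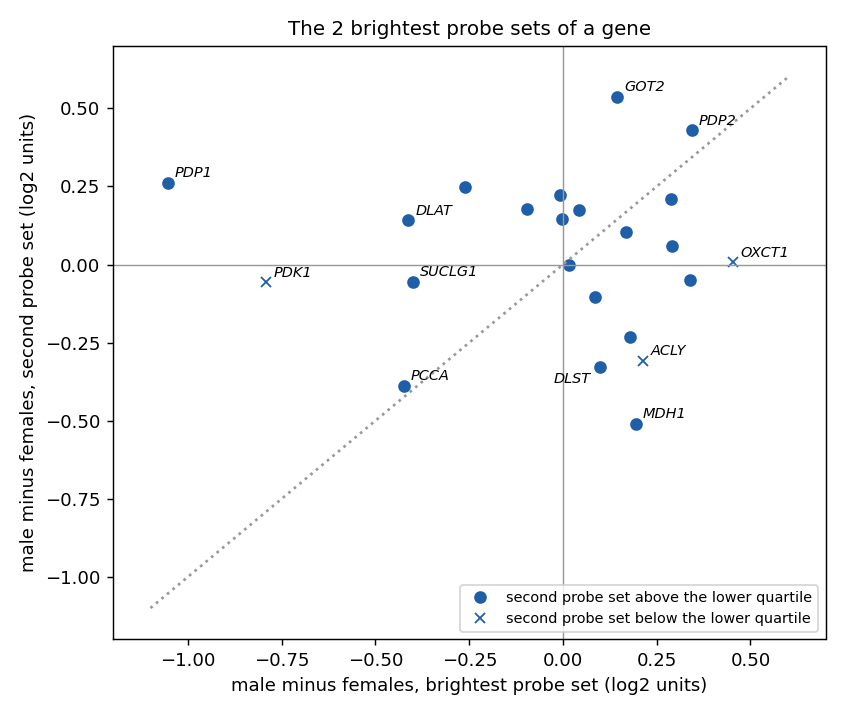
Difference of the male from the mean of the females (log2 units) on the second brightest probe set (vertical axis) against the brightest (horizontal axis) for the 23 genes with at least 2, crosses marking a second probe set below the lower quartile of the array. The dotted line marks equal values. PCCA and PDP2 lie close to it, while PDP1 and MDH1 lie far off.

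Other genes of these pathways were read from lists of 45 symbols, 36 of which were measured. The male was highest for 19 of them, against 41.5% of all genes, and lowest for 9, against 32.5%. It lay between the females for 8, against 26.0%, and 0 of the 36 passed limma's adjusted threshold. The median difference was 0.16 over the 36 genes, beside 0.04 over all genes. Of 5 genes of aconitase and succinate dehydrogenase, SDHAF2, an assembly factor, had the largest range, with 13.43 in the male, against 12.73 and 12.77 in the females. SDHA, the flavoprotein subunit of the dehydrogenase, was steadier, with 12.88 in the male, against 12.67 and 12.84. Of 4 further genes, LIAS, LIPT1 and LIPT2 belong to the supply of lipoate, the cofactor of DLAT, DLST and DBT. LIPT1, a lipoyltransferase, had the largest range of the 4, at 0.43. The other gene, PDPR, encodes a regulatory subunit of pyruvate dehydrogenase phosphatase. It read 7.79 in the male, against 7.79 and 7.88 in the females, on a dim probe set. Of 14 genes of branched-chain breakdown past the dehydrogenase, the male was highest for 7 and lowest for 4, beside 41.5% and 32.5% of all genes. MCEE, on a dim probe set, had the largest range, 0.85. One of the 4 in which the male was lowest was MCCC1, the biotin-bearing subunit of the leucine-pathway carboxylase. It read 7.42 in the male, against 8.00 and 8.12 in the females, a dim probe set noticed after its values were seen. Among 4 mitochondrial carriers, SLC25A12, the aspartate-glutamate exchanger of muscle, had the largest range, with 12.55 in the male, against 12.31 and 11.92 in females 1 and 3.

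A list of 9 measured factors that act on PDK4 or share its control held PPARGC1A, the coactivator of mitochondrial biogenesis, as its widest member. PPARGC1A read 10.35 in the male, against 10.39 in female 1 and 9.34 in female 3, so bird 3 was low where PDK4 was in the middle. FOXO1, a transcription factor known in mammals to raise PDK4, read 10.01 in the male, against 11.01 and 10.25 in females 1 and 3. Its order of birds was that of PDK4, and it was singled out after its values were seen. FOXO3, also lowest in the male, read 13.26, against 13.38 and 13.68, with bird 3 and not bird 1 highest. PPARD, the receptor of fatty acids in muscle, read 9.97 in the male, against 9.60 and 9.61, and was highest where PDK4 was lowest. Of the 9 factors, the male was highest for 5 and lowest for 2, beside 41.5% and 32.5% of all genes. Whether any of these factors bears on the PDK4 values was not tested.

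Markers of other cells also differed between these biopsies. Bird 1 had the highest kinase signals on the brightest probe sets. It was also the highest bird for 4 of 7 erythrocyte, 4 of 7 fibroblast and matrix and 3 of 5 endothelium markers, beside 27.5% of all genes. Its median differences from the other birds were 0.23, 0.53 and 0.21 on these lists. It was highest for 2 of 7 slow-fibre, 1 of 6 adipocyte, 0 of 7 leukocyte and 0 of 3 liver markers. Among the 9 fast-fibre markers it was never alone the highest. It was the lowest for 7 of the 9, beside 34.3% of all genes, with a median difference of -0.07. That count includes ACTA1 and MYL1, which read the same in all birds. In the male, with the lowest PDP1 and PCCB, 4 of 7 erythrocyte markers, 4 of 7 slow-fibre markers and 3 of 7 fibroblast and matrix markers lay below both females, as did 32.5% of all genes, with median differences of -0.35, -0.23 and -0.23. Of 3 liver markers 2 did, with a median of -0.34. Leukocyte markers went the other way, with the male above both females for 5 of 7, beside 41.5% of all genes, and a median of 0.20. Bird 1 was the lowest for 5 of the 7, beside 34.3% of all genes. The male also lay above both females for 2 erythrocyte, 2 slow-fibre, 1 fibroblast and matrix and 1 liver marker. Of the 9 fast-fibre markers measured, it lay above both for 4 and below both for 2, with a median of 0.06. Of the 6 adipocyte and the 5 endothelium markers, the male lay below both females for 2 and above both for 2 in each list, with medians of -0.07 and 0.0086. The summed log2 signal of the erythrocyte list was 80.2 in the male, against 82.9 and 80.4 in females 1 and 3, and that of the fibroblast and matrix list 67.5, against 70.4 and 67.3. Of 15 listed erythrocyte markers 7 were measured, and the globin genes among these, HBA1, HBAD and HBE, were all above 13 in every bird. The part of these cells in the kinase, PDP1 and PCCB values was not tested, and in a biopsy fewer cells of a type and less RNA per cell cannot be told apart.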

How the data were processed

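The study hybridised pectoralis RNA of king penguins to Affymetrix Chicken Genome arrays. Per its methods, the authors summarised each probe set with MaxRS, a method for hybridisation across species, took log2 and applied quantile normalization. The deposited values are these log2 signals, 1 per probe set and bird. The number of arrays normalized together is not stated. Of tools, the submitters' notes list limma, with no version.

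The deposited values were used unchanged. Genes were named from the platform annotation, by probe sets with 1 symbol, and chromosomes came from the RefSeq gene table by symbol, without coordinates. SD, range and the difference of the male from the females were computed per probe set. The male was tested against the females with limma 3.58.1 (lmFit, eBayes) on all 36813 probe sets, with Benjamini-Hochberg adjustment at 0.05. With 1 residual degree of freedom, the spread of the single male is assumed to be that of the females. The limma step was tested on simulated data with known changes, with spreads drawn from limma's own fit to these arrays. That test does not bear on the assumption about the male. Arrays carry no depth, and their number limits the precision.

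Members and lists were chosen with earlier results of these data known. Values are given for all pyruvate dehydrogenase genes and carriers, for the 2 widest and the narrowest gene of each other role, for genes with a range above 1, and for the widest gene of each further list. Other genes were named for their role or after their values were seen. Alternatives were repeated quantile normalization, median centring, leaving out the dimmest 25% of probe sets or those that can bind several transcripts, averaging a gene's probe sets, the mean over genes in place of the median, an intensity trend in limma, and leaving out each bird.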

Additional observations from a re-analysis of the deposited data

How the results depend on the processing

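The count of probe sets called for the male against the females was 0 with the deposited values (3600 at an unadjusted p under 0.05), and also with quantile normalization run again, with median centring and without the dimmest 25% of probe sets. It was 5 with single-transcript probe sets alone and 2 with an intensity trend in limma, and 0 probe sets of the metabolic genes were called in any of these fits. The median SD of the metabolic genes, 0.203, ran from 0.163 to 0.168 when 1 bird was left out. A median SD over 2 birds tends to be lower than one over 3, so this fall does not show dependence on a bird. Their median difference of the male from the females, 0.0016, was 0.0396 with single-transcript probe sets alone and -0.0768 as a mean over genes, and ran from -0.0016 to 0.0272 when a female was left out. Without bird 2 there is no male and no such value. The share of metabolic genes highest in bird 1, 27.0%, was 10.7% over the 28 genes with a single-transcript probe set. That of bird 3, 37.8%, was 50%. This choice removes PDK3 and leaves PDK1 on its dim probe set, with a difference of -0.06. It also removes DLD and IDH3B and moves MPC2, SUCLG1 and MDH2 to probe sets on which bird 1 is not highest. The same shares over all genes were not computed. With a gene's probe sets averaged, 7 of the 30 genes named by rule moved by more than their SD between birds, DLAT, DLD, PDP1, IDH2, SUCLG1, ACLY and GOT2, and the sign turned for 4, PCK2, IDH2, ACLY and DBT. Leaving out bird 1 turned the sign for 6 of the 30 genes and leaving out bird 3 for 5, none of which had been called. No paired analysis was possible because all birds belong to 1 group.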
